A study of Rattus norvegicus with 8 samples.

Results

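Glycolysis, glucose uptake and glycogen genes were followed in hearts of aged female Norway Brown rats across 4 groups. The list held 34 genes, of which 24 belong to glucose uptake, glycolysis, lactate handling and their regulatory kinases, and 10 to glycogen. A gene was represented by its brightest probe set among those annotated to a single symbol, a probe set being the group of short probes on the array that reads 1 transcript. Of the 34 genes, 33 had such a probe set. The pyruvate kinase gene Pkm had 1 probe set, which lists several symbols, so no value is given for it. Gapdh was measured only by quality control probe sets of the array, which stand outside the test, and 32 genes were therefore tested among 18625 probe sets. All 32 passed the filter on dim probe sets through their mean over the 8 arrays.

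The rats were 18 to 22 months old. Sham rats had their body cavity opened and closed and kept their ovaries. The ovariectomy group lost the ovaries, with no pellet named. The early estradiol group received a 0.5 mg 17-β estradiol pellet under the skin, made to release for 90 days, at the ovariectomy itself. The late estradiol group received the same pellet 9 weeks after ovariectomy. Ovariectomy was thus common to the last 3 of these groups. Equal amounts of RNA from 3 hearts went onto each array, with 2 arrays a group. A difference between groups was thus measured between pools, so that single rats cannot be seen and the spread within a group may be partly technical. The time from surgery to tissue collection and any pellet without hormone in the other groups were not given in the sources used here.

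Heart muscle takes up glucose through the insulin-responsive carrier Slc2a4 and the basal carrier Slc2a1, and hexokinase traps it as glucose 6-phosphate. That sugar phosphate either runs down glycolysis to pyruvate or is stored as glycogen, which glycogen phosphorylase releases again when energy is short. The adult heart draws most of its energy from fatty acids, and it also burns lactate. Many steps have several isozymes, and in adult muscle the forms Eno3, Pgam2, Pfkm and Pygm stand beside the more widely expressed Eno1, Pgam1, Pfkl and Pygb. Lactate dehydrogenase is built from Ldha and Ldhb subunits, and heart tissue is known to be rich in Ldhb.

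Before normalization the trimmed mean signal was 28.1 to 69.8 for replicate 1 of the groups and 103.8 to 137.0 for replicate 2. The dimmest array was late estradiol replicate 1. Its Gapdh probe sets also gave the highest 3′ over 5′ ratio, 2.70, where the range over the other arrays was 1.26 to 1.65, and this ratio grows as RNA is degraded. Its actin ratio was 3.01, against 1.71 to 2.19 on the other replicate 1 arrays, and below the highest of 3.06 on ovariectomy replicate 2. Its hexokinase ratio was 4.52 in a range of 2.63 to 7.20. The 5′ hexokinase probe set behind that ratio was dim, at 2.14 on this array on the log2 scale after normalization. The summed level of 9 measured cardiomyocyte markers lay between 59977 and 61938 on all 8 arrays. Summed fibroblast markers ran from 3600 to 5015 in late estradiol, 5411 to 5480 in sham, 5683 to 6623 in early estradiol and 6512 to 7116 after ovariectomy, over 8 of 8 markers. Skeletal muscle markers, 8 of 9 measured, summed to 7814 to 8600 on the 8 arrays, nearly all of it from Myh1 and Ckm, while Myh2, Myh4, Myh3, Tnnt3 and Actn3 stayed below 5 on the log2 scale. Summed macrophage markers, 10 of 10 measured, ran from 1301 to 2032 in late estradiol, 1527 to 1578 in sham, 2262 to 2859 in early estradiol and 1565 to 5901 after ovariectomy. These sums are of linear normalized signals, and their part in the results that follow was not tested. In bulk RNA, fewer cells of a type and less RNA per cell cannot be told apart.

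Levels below are log2 signals after quantile normalization, which gives all 8 arrays the same distribution of values, and a step of 1 is a doubling. Differences are between means of 2 arrays, with limma's moderated standard error (SE). Each probe set has its own response, so its signal says how far it stands above the array's background and does not rank genes by transcript amount. The genes were bright, with 17 of the 32 at a mean of 10 or more, a level reached by 3.14% of all probe sets, 9 between 6 and 10, and 6 under 6. The median SD within a group was 0.22 over the 32 genes and 0.40 over all probe sets, although among probe sets at 10 or more it was 0.17 for the genes and 0.16 for all.

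No gene of the list passed in any of the 6 comparisons or in the F test over the 4 groups (limma, Benjamini-Hochberg adjustment, threshold 0.05). No probe set of the whole array passed either, so the background of calls is 0% in each comparison. The smallest adjusted p in the whole table was 0.0686, in late estradiol against ovariectomy. At an unadjusted p under 0.05, 0 of 32 genes stood out in ovariectomy against sham, where 1.47% of all probe sets did. The count was 1 (Pygm) in early estradiol against ovariectomy, against a background of 1.71%, and 1 (Eno3) in early estradiol against sham, against 0.784%. It was 2 (Eno3, Ldha) in late estradiol against ovariectomy, with a background of 4.35%. It was 4 (Eno1, Ldha, Gys1, Pygm) in late against early estradiol, with a background of 3.87%, and 3 (Eno3, Ldha, Gys1) in late estradiol against sham, with 3.37%. The F test gave 2, Eno3 and Ldha, with a background of 1.86%. With 32 genes, shares of this size rest on few genes, and the values below are descriptions of differences that did not pass.

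**Figure D1:**
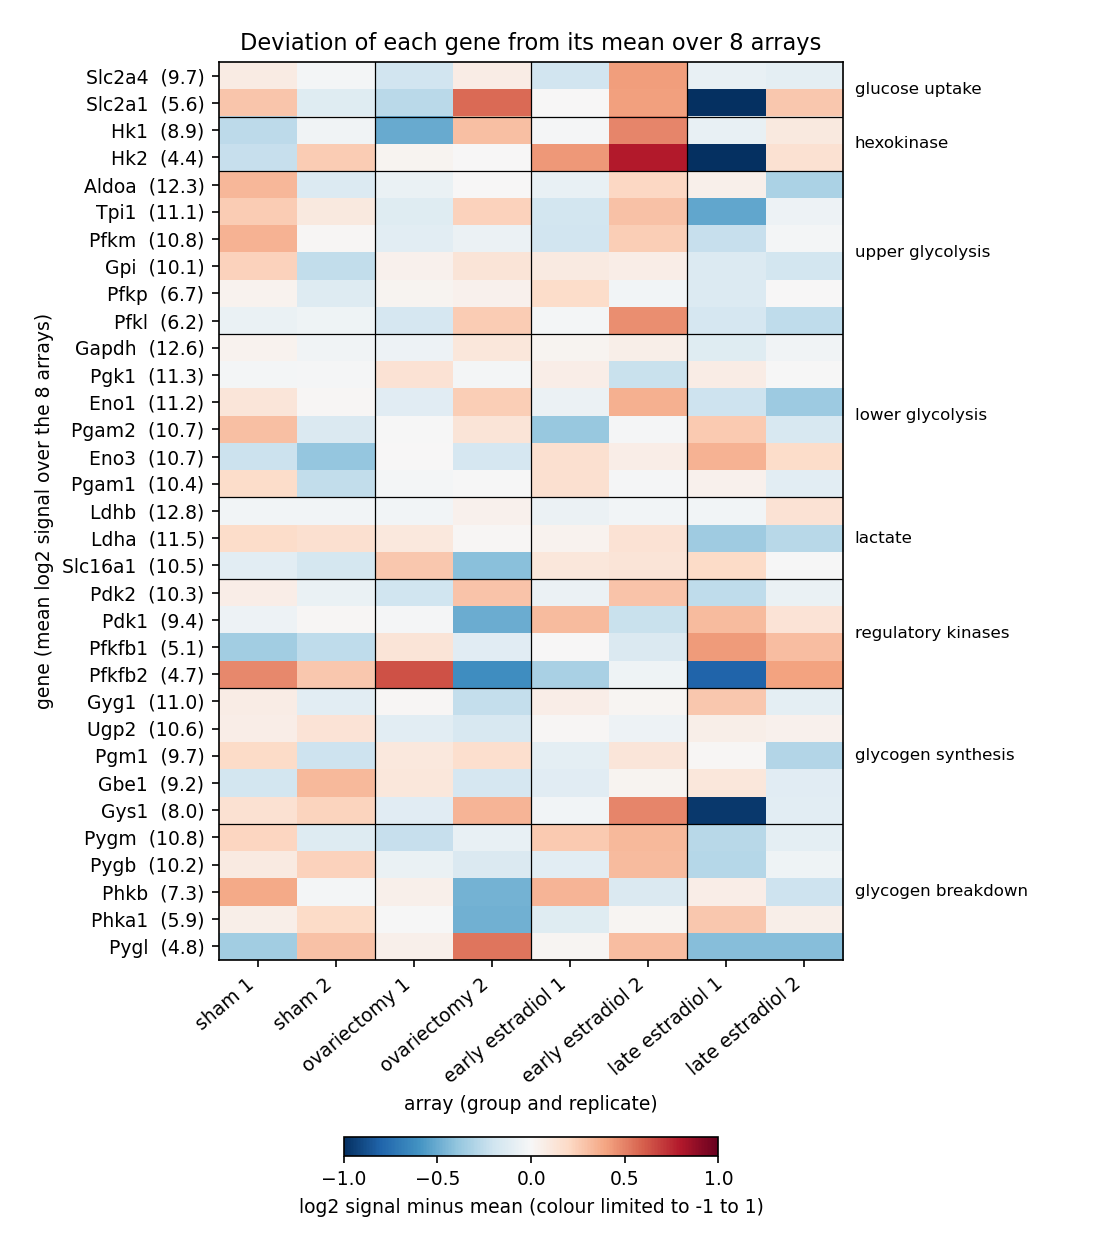
Log2 deviation of each of the 33 measured genes (rows, grouped by step, with the mean log2 signal in brackets) from its own mean over the 8 arrays (columns). Red is above and blue below the mean, and colours are clipped at 1. Most bright genes stayed pale, the late estradiol arrays were lower for Ldha and Eno1 and higher for Eno3, and the darkest cells of late estradiol replicate 1 belonged to Slc2a1, Hk2 and Gys1.

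Both late estradiol arrays lay outside the range of the other 6 for 6 genes, Eno1, Ldha, Pfkl and Pygl below (4 of 32, against 4.40% of all probe sets) and Eno3 and Pfkfb1 above (2 of 32, against 4.13%). The enolase and lactate dehydrogenase pairs hold 3 of these, and their promoters are shown because the 2 genes of each pair differed in how they read in late estradiol. The windows are the 250 bases before the transcription start, from RefSeq on the rat build GRCr8, read 5′ to 3′ on the gene's own strand. Capitals mark ACGTG, a form of the core of the hypoxia response element, and AGGTCA, on either strand. Other forms of that core, such as GCGTG, were neither marked nor counted. AGGTCA is only part of the estrogen response palindrome, which is counted apart below.
Eno1: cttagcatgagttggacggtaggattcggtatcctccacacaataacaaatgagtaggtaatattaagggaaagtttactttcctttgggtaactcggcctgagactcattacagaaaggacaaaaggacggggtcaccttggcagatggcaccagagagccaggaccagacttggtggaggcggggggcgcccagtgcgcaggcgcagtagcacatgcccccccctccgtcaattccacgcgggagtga
Eno3: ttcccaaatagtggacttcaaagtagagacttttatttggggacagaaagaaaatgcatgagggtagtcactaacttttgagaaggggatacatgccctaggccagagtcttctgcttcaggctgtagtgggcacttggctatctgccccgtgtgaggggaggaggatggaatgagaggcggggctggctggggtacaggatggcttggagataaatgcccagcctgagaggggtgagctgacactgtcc
Ldha: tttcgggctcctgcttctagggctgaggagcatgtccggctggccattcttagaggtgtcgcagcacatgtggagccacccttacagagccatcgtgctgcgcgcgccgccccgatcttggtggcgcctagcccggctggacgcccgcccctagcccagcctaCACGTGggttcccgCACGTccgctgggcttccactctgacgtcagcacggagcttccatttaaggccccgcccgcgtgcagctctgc
Ldhb: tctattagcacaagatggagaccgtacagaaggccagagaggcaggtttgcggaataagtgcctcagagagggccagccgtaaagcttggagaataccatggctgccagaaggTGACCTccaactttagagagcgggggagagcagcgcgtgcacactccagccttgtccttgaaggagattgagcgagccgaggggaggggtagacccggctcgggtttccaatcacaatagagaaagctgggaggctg
The Eno1 window lies at chr5:166002617-166002866 on the + strand, the Eno3 window at chr10:55868936-55869185 on the + strand, the Ldha window at chr1:106507842-106508091 on the + strand and the Ldhb window at chr4:177177409-177177658 on the - strand. Each is the sequence upstream of the first exon.

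The Ldha window was the richest in guanine and cytosine, at 66.4% against 52.4% to 56.4% in the other windows. It held 3 matches to ACGTG, at 87, 86 and 73 bases before the start. The matches at 87 and 86 are both strands of a single CACGTG, which is also a match to the E-box CANNTG. The Eno1 and Eno3 windows held neither ACGTG nor AGGTCA, and the Ldhb window held 1 AGGTCA on the reverse strand, 137 bases before the start. Of the listed genes, 32 had such a window. They are not the 32 tested genes, since they include Gapdh and Pkm and lack Slc2a4 and Pgk1. ACGTG was in 13 of these 32 (40.6%) and in 16.6% of 33469 windows of all genes. AGGTCA was in 2 of 32 (6.25%, Ldhb and Pfkfb2) against 14.1% of all windows, and the palindrome GGTCANNNTGACC in 0 of 32 against 0.0239%. The GC box GGGCGG was in 18 of 32 (56.2%) against 30.5%, the E-box CANNTG in 20 (62.5%) against 65.5%, and the muscle motif CATTCCT in 0 of 32 against 4.35%. Both strands were searched, and a match is a description of letters, not of binding. Each listed gene entered with its first window, while the background held every window. The background was not matched for guanine and cytosine content.

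Eno3, the muscle enolase that makes phosphoenolpyruvate, read 10.44 and 10.27 in sham, 10.66 and 10.49 after ovariectomy, 10.82 and 10.72 in early estradiol, and 11.01 and 10.84 in late estradiol. Its pairs of arrays followed each other in that order with no overlap from sham to late estradiol. The same order without overlap was found in 5 of 18625 probe sets (0.0268%), and some order of the 4 groups without overlap in 107 (0.574%). This order was noticed after the values were seen, so its rarity is no test of it. Measured as deposited log2 signal minus the array's median, Eno3 did not keep this order. It read 5.58 and 6.32 in sham, 5.73 and 6.20 after ovariectomy, 6.16 and 6.59 in early estradiol, and 5.85 and 6.58 in late estradiol. The differences that follow are again after quantile normalization. Against sham, late estradiol was higher by 0.57 ± 0.15 (SE), with a 95% interval of 0.23 to 0.91, a 1.49-fold difference whose unadjusted p was 0.00387 and adjusted p 0.996 in limma. The same difference was 0.57 between the replicate 1 arrays and 0.57 between the replicate 2 arrays. Early estradiol was 0.42 above sham, late estradiol 0.35 above ovariectomy, and ovariectomy 0.22 above sham, each with the same SE and with an adjusted p of 0.944 or more in limma.

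Eno1, the enolase found in most cells, read 11.36 and 11.26 in sham, 11.13 and 11.49 after ovariectomy, 11.19 and 11.60 in early estradiol, and 11.04 and 10.88 in late estradiol. Both late arrays lay below the other 6, while the other 3 groups overlapped. Late estradiol was lower than early estradiol by 0.44 ± 0.18 (SE), with an adjusted p of 0.987 in limma, and lower than ovariectomy by 0.35, with 0.944. Within an array, Eno3 minus Eno1 was -0.92 and -0.99 in sham, -0.47 and -0.99 after ovariectomy, -0.37 and -0.88 in early estradiol, and -0.03 and -0.04 in late estradiol. Both late arrays were thus higher than the other 6 in this difference, and the mean was 0.70 above that of ovariectomy. A factor common to an array cancels in this difference, and on the deposited values without normalization the late arrays read -0.04 and -0.04 against -0.96 to -0.36 on the other 6.

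Ldha, the lactate dehydrogenase subunit that favours making lactate from pyruvate, read 11.66 and 11.64 in sham, 11.58 and 11.48 after ovariectomy, 11.50 and 11.62 in early estradiol, and 11.11 and 11.19 in late estradiol. Sham was highest and late estradiol lowest, with no overlap of either with the other groups, while ovariectomy and early estradiol overlapped. Late estradiol was lower than sham by 0.50 ± 0.13 (SE), a 1.41-fold difference, than early estradiol by 0.41 and than ovariectomy by 0.38, with a 95% interval of -0.68 to -0.08 for the last. The unadjusted p was 0.00407, 0.0122 and 0.0179 in that order, and the adjusted p 0.996, 0.987 and 0.944 in limma. Without late estradiol replicate 1 the difference from ovariectomy was -0.32, and without replicate 2 it was -0.42.

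Ldhb, the subunit that favours turning lactate into pyruvate, read 12.81 and 12.81 in sham, 12.81 and 12.88 after ovariectomy, 12.78 and 12.81 in early estradiol, and 12.81 and 12.97 in late estradiol. All group differences lay between -0.05 and 0.10, and late estradiol minus ovariectomy was 0.05 with a 95% interval of -0.23 to 0.33. These equal readings come partly from the normalization, which gives probe sets of equal place the same value. Ldhb was the 7th to 18th brightest probe set on every array. Measured as deposited log2 signal minus the array's median, Ldhb was 8.56 and 8.47 in late estradiol, 8.25 and 8.35 after ovariectomy, 8.34 and 8.11 in early estradiol, and 7.77 and 8.40 in sham. By that measure the late arrays were the highest, and the groups lay closer together than the 2 sham arrays did.

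The place of each gene from the brightest on its array does not depend on any array scaling. Ldha stood at places 168 to 204 on the 6 arrays of the other groups and at 280 and 264 on the late arrays, and Eno1 at 179 to 276 against 298 and 334. Eno3 stood at 348 to 512 on the other 6 arrays and at 304 and 343 on the late arrays. Quantile normalization keeps the order of probe sets within an array, so these places restate the normalized values and are no separate check. The late arrays did not keep their side for all 3 genes by the deposited log2 signal minus the array's median. By that measure Eno3 was 5.85 and 6.58 in late estradiol against 6.16 and 6.59 in early estradiol, so late estradiol was not highest. Eno1 was 5.89 and 6.62 in late estradiol against 6.24 to 7.32 on the other 6 arrays, and Ldha 5.99 and 6.96 against 6.68 to 7.52, so that late replicate 2 fell within the others for both. Compared only with arrays of the same replicate number, each late array was the lowest for Eno1 and for Ldha. Ldhb minus Ldha within an array was 1.69 and 1.78 in late estradiol against 1.15 to 1.40 on the other 6 arrays after normalization. On the deposited values it was 2.57 and 1.50 in late estradiol and 0.78 to 1.54 elsewhere, so that late estradiol replicate 2 fell within the range of the other groups there.

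**Figure D2:**
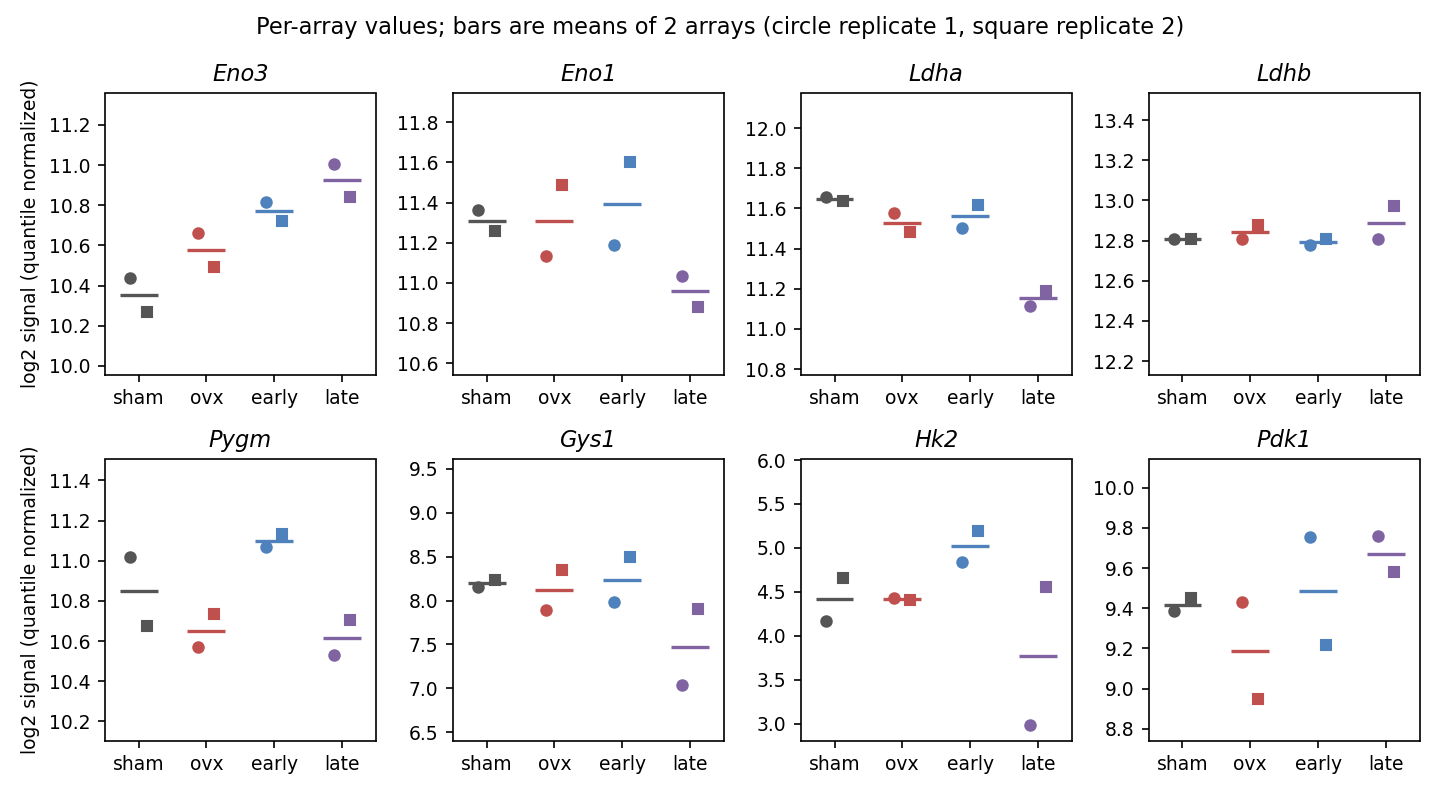
Log2 signal after quantile normalization on each array for Eno3, Eno1, Ldha, Ldhb, Pygm, Gys1, Hk2 and Pdk1, one panel per gene. All axes span the same range except those of Gys1 and Hk2, which are wider. Points are arrays, circles for replicate 1 and squares for replicate 2, and the bar is the mean of the 2 arrays of a group. Eno3 runs from 10.27 to 11.01 in the order sham, ovariectomy, early and late estradiol, Ldha drops to 11.11 and 11.19 in late estradiol, and Gys1 and Hk2 are low mainly on late estradiol replicate 1.

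**Figure D3:**
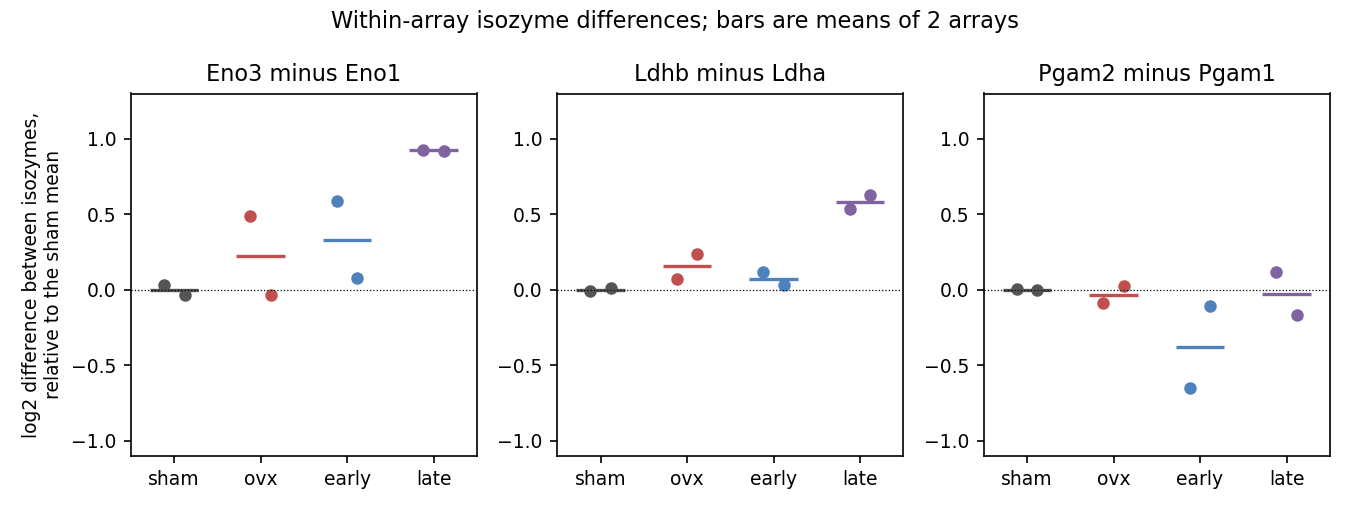
Difference in log2 signal between paired isozymes within each array (vertical, relative to the sham mean, quantile-normalized values), by group, with points for arrays and bars for means of 2 arrays. The late estradiol mean stands 0.92 above the sham mean for Eno3 minus Eno1 and 0.58 above it for Ldhb minus Ldha, while Pgam2 minus Pgam1 differs by -0.03.

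Among the uptake genes, the carrier Slc2a4 read 9.74 and 9.63 in sham, 9.47 and 9.73 after ovariectomy, 9.46 and 10.07 in early estradiol, and 9.58 and 9.56 in late estradiol. Both late arrays lay below both sham arrays, and every other pair of groups overlapped. Its differences lay between -0.20 and 0.17, with an SE of 0.21. The basal carrier Slc2a1 was dim, at 5.90 and 5.50 in sham, 5.36 and 6.19 after ovariectomy, 5.63 and 6.03 in early estradiol, and 4.49 and 5.90 in late estradiol. Its low value belonged to late estradiol replicate 1 alone, and its SE was 0.50.

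Hk1, the hexokinase that most cells hold on mitochondria, read 8.61 and 8.84 in sham, 8.37 and 9.18 after ovariectomy, 8.87 and 9.37 in early estradiol, and 8.80 and 8.98 in late estradiol. The 2 arrays of the ovariectomy group were the lowest and the second highest of the 8. The insulin-responsive Hk2 read 4.17 and 4.66 in sham, 4.43 and 4.41 after ovariectomy, 4.84 and 5.20 in early estradiol, and 2.98 and 4.56 in late estradiol. Both early arrays lay above the other 6, which was also true of Pygm and of 2.17% of all probe sets. Hk2 gave the largest difference of the list above ovariectomy in early estradiol, 0.60 ± 0.65 (SE), and the largest below early estradiol in late estradiol, -1.25 ± 0.65, with adjusted p of 0.9998 and 0.987 in limma. Without late estradiol replicate 1 the second value was -0.47, and the difference of late estradiol from ovariectomy turned from -0.65 to 0.15.

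The upper part of glycolysis, the 6 genes Gpi, Pfkm, Pfkl, Pfkp, Aldoa and Tpi1, was lower in mean in late estradiol than in ovariectomy for 6 of 6 genes, with differences of -0.34 to -0.04, where 48.8% of all probe sets were lower. It was also lower than in early estradiol for 6 of 6, with -0.44 to -0.14 (background 50.8%), and than in sham for 6 of 6, with -0.47 to -0.02 (background 52.1%), and none passed. The late arrays enter all 3 of these counts, so they are not separate observations. Without sham replicate 1, 3 of 6 were lower than in sham, with a median of -0.07 in place of -0.20. Tpi1, which interconverts the triose phosphates, had the largest of the differences from ovariectomy, -0.34 ± 0.22 (SE). It read 11.36 and 11.20 in sham, 10.98 and 11.33 after ovariectomy, 10.92 and 11.40 in early estradiol, and 10.58 and 11.05 in late estradiol, so that late replicate 1 was lowest and late replicate 2 was within the other groups. Pfkl, the liver-type subunit of phosphofructokinase, had both late arrays lowest, at 5.985 and 5.900 against 5.989 to 6.62, a narrow gap. Pfkm, the muscle subunit, read between 10.56 and 11.14 and Pfkp, the platelet-type subunit, between 6.61 and 6.93 on the 8 arrays, and neither had both late arrays lowest. Gpi, which makes fructose 6-phosphate, ran from 9.90 to 10.38, and the aldolase gene Aldoa from 11.93 to 12.58.

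In the lower part, Gapdh, which makes the first high-energy phosphate of the pathway, read 12.59 and 12.52 in sham, 12.50 and 12.67 after ovariectomy, 12.58 and 12.61 in early estradiol, and 12.43 and 12.52 in late estradiol on its 3′ control probe set. Its differences lay between -0.12 and 0.05. Pgk1, which gains the first ATP, lay between 11.10 and 11.47 with no group apart from all the others, and its differences were -0.14 to 0.11. The phosphoglycerate mutases Pgam1 and Pgam2 lay between 10.13 and 10.57 and between 10.33 and 11.01. Pgam2 minus Pgam1 within an array was 0.45 and 0.44 in sham, 0.35 and 0.47 after ovariectomy, -0.21 and 0.34 in early estradiol, and 0.56 and 0.27 in late estradiol, with overlap of the late arrays with sham and ovariectomy. Pgam2, the muscle form, had the largest difference of the list below ovariectomy in early estradiol, -0.26 ± 0.21 (SE), and its early values of 10.33 and 10.70 did not overlap with 10.71 and 10.84 after ovariectomy.

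Slc16a1, the carrier that moves lactate across the cell membrane, read 10.41 and 10.34 in sham, 10.78 and 10.10 after ovariectomy, 10.63 and 10.64 in early estradiol, and 10.70 and 10.51 in late estradiol. Its ovariectomy arrays were the highest and the lowest of all 8. Pyruvate dehydrogenase kinases switch off the entry of pyruvate into the mitochondrial cycle. Pdk1 had the largest difference of the list above ovariectomy in late estradiol, 0.48 ± 0.23 (SE, adjusted p 0.944 in limma), from 9.43 and 8.95 to 9.76 and 9.58. Its other tested probe set read -0.13 in the same comparison, so that the 2 probe sets disagreed in sign. Pdk2 lay between 10.02 and 10.56. Its late arrays, at 10.02 and 10.205, lay just below its early arrays, at 10.208 and 10.56.

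Pfkfb1 and Pfkfb2 make and break fructose 2,6-bisphosphate, an activator of phosphofructokinase, and both were dim here. Pfkfb1 read 4.75 and 4.84 in sham, 5.23 and 4.98 after ovariectomy, 5.11 and 4.96 in early estradiol, and 5.52 and 5.41 in late estradiol. Its late arrays lay above the other 6 and its sham arrays below them, and late estradiol minus sham was 0.67 ± 0.40 (SE), the largest difference above sham in the list. Pfkfb2 ran from 3.89 to 5.33, and its early estradiol arrays lay below its sham arrays by a mean of 0.56 ± 0.61 (SE). Its other tested probe set read 0.51 for early estradiol against sham, the opposite sign. The within-group SD of Pfkfb2, 0.63, was the highest of the 32 genes.

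Glycogen enzymes were described apart. After ovariectomy 8 of 10 were lower in mean than in sham, where 53.4% of all probe sets were, with a median difference of -0.15 against -0.03 over all probe sets, and none passed. In early estradiol 7 of 10 were higher than after ovariectomy, where 53.0% of all probe sets were, with a median of 0.14 against 0.02. These comparisons share the ovariectomy arrays, so a low reading there enters both counts. Without early estradiol replicate 2, 5 of 10 were higher and 5 lower than after ovariectomy, with a median of 0.06, and without ovariectomy replicate 2 the median was 0.07 with 7 of 10 higher. Without ovariectomy replicate 1, 7 of 10 were lower than in sham, with a median of -0.23, and without ovariectomy replicate 2, 6 of 10, with -0.13. For Pygm and Phka1, both among the 8 lower genes, other tested probe sets were higher after ovariectomy than in sham. In late estradiol 5 of 10 were higher and 5 lower than after ovariectomy (background 51.2% and 48.8%), and 6 of 10 were lower than in early estradiol (50.8%), with a median of -0.16. That median was -0.05 without early replicate 2 and -0.02 without late replicate 2. Late estradiol was lower than sham for 8 of 10 (52.1%), with a median of -0.18. The count was 10 of 10 without late replicate 1 and 6 of 10 without late replicate 2, with medians of -0.20 and -0.08. Summed over the 10 genes on the linear scale, the level was 8625 to 9135 in sham, 7855 to 8157 after ovariectomy, 8787 to 9355 in early estradiol and 7982 to 8379 in late estradiol. The ovariectomy and late arrays thus lay below the sham and early arrays in this sum, which the brightest probe sets dominate.

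Pygm, the muscle glycogen phosphorylase, was first in the F test among the glycogen genes, with an unadjusted p of 0.0530. It read 11.02 and 10.67 in sham, 10.57 and 10.73 after ovariectomy, 11.07 and 11.13 in early estradiol, and 10.53 and 10.70 in late estradiol. Both early arrays lay above the other 6, and the other 3 groups overlapped. Early estradiol was higher than ovariectomy by 0.45 ± 0.16 (SE), with a 95% interval of 0.08 to 0.82, an unadjusted p of 0.0218 and an adjusted p of 0.9998 in limma. Late estradiol was lower than early estradiol by 0.48, with adjusted p 0.987, and differed from ovariectomy by -0.04. The other 2 tested Pygm probe sets gave 0.27 and 0.29 for early estradiol against ovariectomy, and -0.84 and -0.76 for late against early estradiol. All 3 had the same signs in these comparisons. In ovariectomy against sham the other probe sets disagreed in sign with the brightest, at 0.12 and 0.24 against -0.195. On both of them late replicate 1 was the lowest array, at 8.58 and 6.995. Late replicate 2 also lay below both early arrays on each, but narrowly on the dimmer one, at 8.337 against 8.347 and 8.514.

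The other phosphorylases moved less evenly. Pygb, the brain form, lay between 9.87 and 10.47 with differences of -0.33 to 0.21. Pygl, the liver form, was dim, and read 4.49 and 5.13 in sham, 4.89 and 5.38 after ovariectomy, 4.86 and 5.15 in early estradiol, and 4.41 and 4.41 in late estradiol. Its late arrays lay below the other 6, and its difference from ovariectomy, -0.72 ± 0.47 (SE), was the largest of the list in that direction. Pygl also had the largest difference above sham after ovariectomy, 0.32 ± 0.47. Phosphorylase kinase switches phosphorylase on, and its subunit genes Phka1 and Phkb were both lower in mean after ovariectomy than in sham, by 0.37 and 0.40. For Phkb, at 7.73 and 7.33 in sham and 7.39 and 6.87 after ovariectomy, this was the largest difference of the list below sham, with an SE of 0.29 and overlapping arrays. The other tested Phka1 probe set, a dimmer one, read 0.69 for ovariectomy against sham, so that the 2 Phka1 probe sets disagreed in sign.

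On the synthesis side, Gys1, the muscle glycogen synthase, read 8.16 and 8.23 in sham, 7.89 and 8.34 after ovariectomy, 7.98 and 8.50 in early estradiol, and 7.04 and 7.90 in late estradiol. Late estradiol was lower than ovariectomy by 0.65 ± 0.31 (SE), than early estradiol by 0.77 and than sham by 0.72, with adjusted p of 0.944, 0.987 and 0.996 in limma. Most of this came from 1 array. Without late estradiol replicate 1 the differences were -0.22, -0.34 and -0.30, and late replicate 2, at 7.90, lay beside ovariectomy replicate 1, at 7.89.

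Ugp2, which makes the UDP-glucose that glycogen synthase uses, had the lowest within-group SD of the 32 genes, 0.04. It read 10.68 and 10.75 in sham, 10.51 and 10.46 after ovariectomy, 10.63 and 10.57 in early estradiol, and 10.67 and 10.66 in late estradiol. The 4 groups did not overlap, with ovariectomy lowest and sham highest. Ovariectomy was lower than sham by 0.23 ± 0.14 (SE), where limma's SE is larger than the gene's own spread because it borrows from probe sets of like brightness, and the adjusted p was 0.9999. Both ovariectomy arrays below the other 6 were found in 1 of 32 genes and in 3.28% of all probe sets. Gyg1, the protein primer of glycogen, lay between 10.74 and 11.25, the branching enzyme Gbe1 between 9.06 and 9.57, and Pgm1, which links glucose 1-phosphate to glycolysis, between 9.40 and 9.88. Both early arrays of Gyg1 lay above both ovariectomy arrays, and both late arrays of Pgm1 lay below them.

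**Figure D4:**
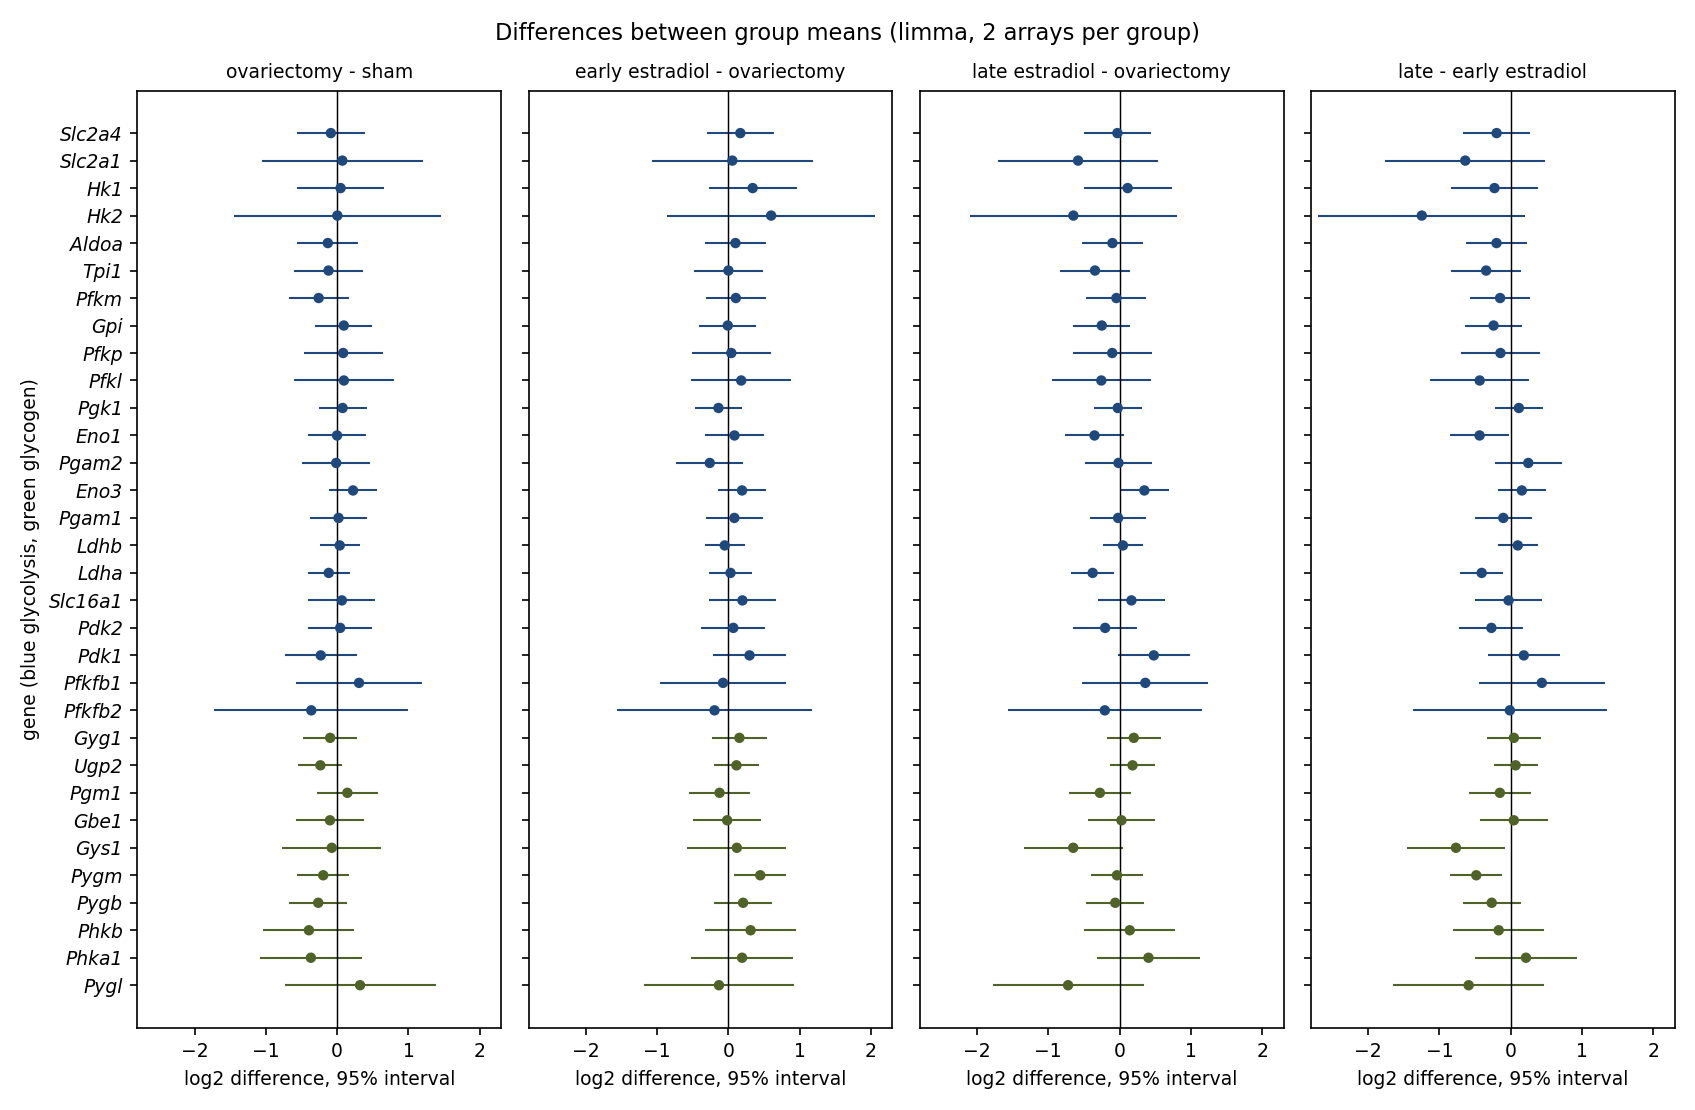
Log2 difference with its 95% interval (limma) for the 32 tested genes in 4 comparisons, with glycolysis and glycogen genes in separate colours. No gene passed after adjustment, and intervals are widest for the dim genes Hk2, Slc2a1 and Pfkfb2. In late against early estradiol 22 of 32 genes lie left of 0, including Ldha, Eno1, Pygm and Gys1, and Eno3 lies right of 0, a sign that Eno3 did not keep in that comparison without normalization.

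Over the whole list, differences were small. All 32 genes lay within 0.5 of no difference in ovariectomy against sham, where 14523 of 18625 probe sets did, and 28 of 32 in late against early estradiol, where 71.4% did. Those shares of all probe sets were not matched for brightness. A mean of 10 or more was reached by 17 of the 32 genes and by 3.14% of all probe sets. The median SD within a group was 0.16 over all probe sets at that level and 0.40 over all probe sets. Ovariectomy gave 15 genes higher (46.6%) and 17 lower (53.4%) than sham, with a median of -0.01 against -0.03 over all probe sets. The percentages in brackets are the shares of all probe sets in the same direction. Early estradiol gave 23 of 32 higher (53.0%) and 9 lower (47.0%) than ovariectomy, with a median of 0.09 against 0.02, and 19 higher (49.8%) and 13 lower (50.2%) than sham, with 0.06 against 0.00. Late estradiol gave 11 of 32 higher (51.2%) and 21 lower (48.8%) than ovariectomy, 10 higher (49.2%) and 22 lower (50.8%) than early estradiol, and 9 higher (47.9%) and 23 lower (52.1%) than sham, with medians of -0.04, -0.16 and -0.14 against 0.01, -0.01 and -0.02 over all probe sets. The late group had the lowest mean of the 4 for 19 of 32 genes (59.4%), where it did so for 31.2% of all probe sets. The early group had the highest mean for 12 genes (37.5%), against 23.7%.

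The counts and medians depend on single arrays. Without early estradiol replicate 2, the direction of early estradiol turned, with 15 of 32 genes higher and 17 lower than after ovariectomy and a median of -0.01 against 0.03 over all probe sets. Against sham the counts were likewise 15 and 17, with a median of -0.04. The median of late against early estradiol was then -0.06 in place of -0.16, with 20 of 32 lower, and without early replicate 1 it was -0.24. Without sham replicate 2, early estradiol gave 16 genes higher and 16 lower than sham, and without sham replicate 1 the median of that comparison was 0.13. Ovariectomy against sham had a median of 0.03 without ovariectomy replicate 1 and of -0.13 without sham replicate 2, where 21 of 32 were lower, and of -0.08 without ovariectomy replicate 2. Late estradiol against sham had a median of -0.06 without sham replicate 1 and of -0.22 without sham replicate 2. Late estradiol against ovariectomy had a median of -0.09 without ovariectomy replicate 1, -0.08 without ovariectomy replicate 2, -0.08 without late replicate 2 and -0.01 without late replicate 1. Without late estradiol replicate 1, 16 of 32 genes were lower in late estradiol than in ovariectomy, while 22 of 32 were still lower than in early estradiol. Without normalization between arrays, the median of all probe sets itself shifted by -0.31 in late estradiol against ovariectomy and by -0.48 against early estradiol. Relative to that median, 11 of 32 genes lay above it in each of these comparisons, and with normalization 11 and 10 did.

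Genes whose groups did not overlap were also counted, with the share of all probe sets in brackets. In ovariectomy against sham 2 genes had both arrays higher (background 11.0%) and 5 both lower (14.2%). In early estradiol against ovariectomy 5 were higher (14.8%) and 1 lower (12.3%), and against sham 7 were higher (12.0%) and 4 lower (12.7%). In late estradiol 5 were higher than ovariectomy (15.7%) and 7 lower (13.3%), 4 higher than early estradiol (15.5%) and 9 lower (16.3%), and 5 higher than sham (14.4%) and 10 lower (16.2%). Both late arrays lay below the other 6 for 4 genes, Pfkl, Eno1, Ldha and Pygl (12.5%, background 4.40%), and above them for Eno3 and Pfkfb1 (6.25%, background 4.13%). Both sham arrays were above the other 6 for Ldha and Ugp2 (background 2.28%) and below them for Eno3 and Pfkfb1 (1.59%). Both ovariectomy arrays were above the other 6 for 0 of 32 genes (2.36%).

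Probe sets of a gene other than the brightest read low on late estradiol replicate 1. That array was the lowest of the 8 for 11 of the 32 brightest probe sets (34.4%), for 8 of the 11 other tested probe sets of the same genes (72.7%), and for 23.4% of all probe sets. The median distance from the mean of the other 7 arrays was -0.09, -1.11 and 0.00 in that order. Pdk2 shows the gap within 1 gene, since its brightest probe set read 10.02 there against 10.07 to 10.56 on the other arrays, and its other probe set 4.94 against 7.56 to 8.20. For Pfkm the second probe set read 6.85 against 8.36 to 9.03, and the other Pygm probe sets read 8.58 against 9.27 to 10.09 and 6.995 against 7.58 to 8.51. The control probe sets for Gapdh, whose position along the transcript is known, read 12.43 against 12.50 to 12.67 at the 3′ end and 11.42 against 11.90 to 12.17 at the 5′ end. Those for Hk1 were low at both ends there, at 4.34 against 5.87 to 6.38 at the 3′ end and 2.14 against 3.29 to 4.68 at the 5′ end, a distance of -1.81 and -1.74 from the mean of the other arrays. The positions of the other probe sets were not used here, and the part of RNA quality in these gaps was not tested.

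**Figure D5:**
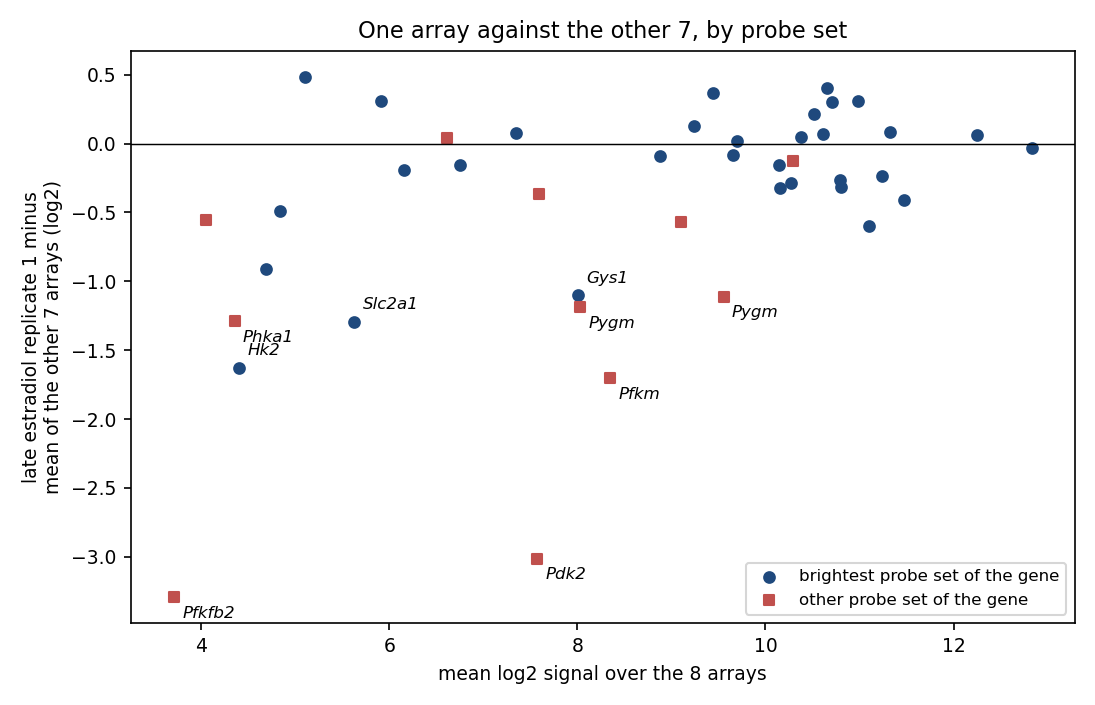
Distance of late estradiol replicate 1 from the mean of the other 7 arrays (vertical, log2) against mean log2 signal over the 8 arrays (horizontal) for each tested probe set of the listed genes, circles for the brightest probe set of a gene and squares for the others. Circles lie mostly near 0 at high signal, while squares reach -3.01 for Pdk2 and -3.29 for Pfkfb2.

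Neighbouring pathways were read from lists of other genes, and no gene of them passed in any comparison. Of 21 neighbours in glycolysis and transport, 11 were tested, with 5 higher and 6 lower in late estradiol than after ovariectomy and a median of -0.08. That comparison is given for each list here, and 48.8% of all probe sets were lower in it. Bsg, the chaperone that brings Slc16a1 to the membrane, read 10.17 and 9.79 in sham, 9.73 and 10.29 after ovariectomy, 9.63 and 10.28 in early estradiol, and 9.28 and 9.69 in late estradiol. Gapdhs, the germ-cell form of Gapdh, was dim and ran from 1.43 to 5.76, its lowest value on ovariectomy replicate 1. Of 13 genes of pyruvate dehydrogenase and pyruvate import, 12 were tested and 10 of 12 were lower, with a median of -0.10. Between the replicate 1 arrays alone the median was -0.31 and between the replicate 2 arrays 0.18. Dld, a subunit of the complex, ran from 9.10 on late estradiol replicate 1 to 10.26, and the kinase gene Pdk3 from 3.94 to 5.74 with its highest value on the same array.

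Of 18 further glycogen genes, 11 were tested, with 6 higher and 5 lower and a median of 0.02. Phkg1, the muscle catalytic subunit of phosphorylase kinase, had the smallest F-test p among them, 0.0199 unadjusted, and read 4.01 and 4.88 in sham, 5.72 and 4.40 after ovariectomy, 5.06 and 4.89 in early estradiol, and 1.02 and 3.21 in late estradiol. Both late arrays were lowest, at levels below the filter's limit of 3.69. Ppp1r3a, which holds protein phosphatase on glycogen, read 8.27 and 8.57 in sham, 8.20 and 7.62 after ovariectomy, 8.14 and 8.24 in early estradiol, and 7.82 and 7.63 in late estradiol. The late arrays lay below both sham and early arrays but not below both ovariectomy arrays.

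In the 19 tested of 21 genes of glucose uptake signalling, 8 were higher and 11 lower in late estradiol than after ovariectomy, with a median of -0.05. Prkaa2, a catalytic subunit of AMP-activated kinase, ran from 8.63 to 10.10, and Irs2, an insulin receptor substrate, from 5.12 to 6.46. In the pentose phosphate and hexosamine branches 12 of 15 were tested, with 5 higher and 7 lower and a median of -0.05 in the same comparison. Oga, which removes sugar tags from proteins, ran from 4.60 to 6.31, and the aldose reductase gene Akr1b1 from 9.95 to 10.59. All 9 genes of the shuttles that carry NADH electrons into mitochondria were tested, and 7 of 9 were lower, with a median of -0.06. Got1, the cytosolic aspartate aminotransferase, ran from 9.81 to 11.01, and Gpd2, the mitochondrial glycerol phosphate dehydrogenase, from 4.96 to 5.89.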

How the data were processed

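The authors deposited a linear signal intensity for every probe set, from MAS5 per the submitters' processing notes. Version, scaling target and detection calls were not given in the sources used here. Log2 values of all 31099 probe sets were quantile normalized over the 8 arrays. The test left out 57 control probe sets and covered the 18625 of 31042 whose mean reached the 40th percentile (3.69). Gene names came from the platform annotation (1 symbol for 20826 probe sets, several for 436). All 33 measured genes matched RefSeq by Entrez number.

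A model of group means over 8 arrays was fitted in limma 3.58.1 (R 4.3.3), with an intensity trend and 4 residual degrees of freedom. P-values were adjusted by Benjamini-Hochberg within each comparison over all tested probe sets, two-sided, at 0.05. They measure the spread between pools. The fit was tested on simulated data.

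Members and lists were chosen with earlier results of these data known. By rule, values are given for every gene that passed, otherwise for the 4 of smallest F-test p, for the largest difference in each direction of each comparison, for isozyme families, and for 2 genes of each further list.

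The labels number the arrays 1 and 2 in every group. For every one of the 6 pairs of groups, replicate 2 minus replicate 1 correlated across 18625 probe sets (r of 0.28 to 0.33), so the number was treated as pairing the arrays in an alternative fit. Probe sets are not independent in such a correlation. Other alternatives changed normalization, added 32 before the log, changed the filter, dropped the trend, averaged a gene's probe sets, or left out each array. A fit with the annotated control probe sets was added after seeing the data.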

Additional observations from a re-analysis of the deposited data

How the results depend on the processing

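No gene of the list passed in any comparison or in the F test under any of 17 alternatives, and no single-gene result changed its call. Over all probe sets, where 0 passed in each comparison, 1 passed in late estradiol against ovariectomy with 32 added before the log, 1 without a filter, 1 with the 60th percentile filter and 1 with the replicate block, and the block changed no other count of calls. With each array left out in turn, the probe sets called ranged from 0 to 3 in ovariectomy against sham (3 without ovariectomy replicate 1), from 0 to 62 in late estradiol against ovariectomy, from 0 to 100 in late against early estradiol, from 0 to 86 in late estradiol against sham, and from 0 to 1 in the F test. The highest of the last 4 ranges came without late estradiol replicate 2, where late estradiol replicate 1 stands alone and is assumed to vary like the other groups. Of 3246 gene values under the alternatives, 2908 moved by less than 1 SE and 338 by more, and 243 changed sign. Without normalization between arrays, Eno3 in late estradiol was -0.12 from sham, -0.38 from early estradiol and 0.00 from ovariectomy, where the median of all probe sets was -0.62, -0.48 and -0.31. Eno3 thus lay 0.50, 0.09 and 0.31 above that median. With array median centring Eno3 was 0.26 above sham in late estradiol and -0.16 from early estradiol. Ldha kept its sign in late estradiol in every alternative, from -0.71 to -0.32 against ovariectomy and from -1.01 to -0.43 against sham. The lowest values, -0.71 and -1.01, came without normalization, where the median of all probe sets was itself -0.31 and -0.62. Only 23.1% and 11.6% of all probe sets were higher there, so a negative sign in that fit says little about Ldha. With the replicate block the Eno3 difference of late estradiol from sham had an adjusted p of 0.687 in limma. With 2 pools a group, and with brightness differing by replicate number, small differences in bright or dim genes may have gone undetected. Intervals were widest for the dim genes Hk2, Slc2a1 and Pfkfb2. The smallest difference that could be detected was not measured.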
